A study of Mus musculus with 46 samples.

Results

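Striatal gene expression of R6/2 mice given the compound CHDI-00340246 was compared with that of wild-type (WT) mice given vehicle. All 16 striatal libraries of these groups entered, 8 treated R6/2 and 8 WT, of 46 libraries in the series. R6/2 mice carry the transgene Tg(HDexon1)62Gpb, a fragment of human HTT that spans exon 1 and its lengthened CAG tract, on a background given as C57BL6/J. CHDI-00340246, an inhibitor of kynurenine 3-monooxygenase, was dosed orally twice-daily at 30 mg/kg, starting at 4 weeks of age and ending at 12 weeks, when tissue was taken. Treated and WT groups each held 4 females and 4 males. The remaining striatal group, 7 R6/2 mice given vehicle (4 females and 3 males), was set against the same 8 WT libraries, and no WT mouse received the compound. Genotype and compound therefore differ together between treated R6/2 and WT mice and cannot be told apart in that comparison alone. The treated mice serve here as a second set of R6/2 striata, to show which genes were called in both R6/2 groups and which were called in 1 of them.

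The striatum consists mostly of GABAergic projection neurons, which divide into an indirect pathway marked by the dopamine D2 receptor and enkephalin and a direct pathway marked by the dopamine D1 receptor and substance P. These neurons use an unusually rich set of cyclic nucleotide, calcium and G protein signalling proteins, and mutant huntingtin is known to lower the transcripts of many of them before the cells die. Smaller populations of cholinergic and GABAergic interneurons, astrocytes, oligodendrocytes, microglia and vessel cells share the tissue. In bulk tissue, fewer cells of a type and less RNA per cell cannot be told apart.

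Library totals, in units of 1e6 counts, were 30.5 to 35.1 in WT, 32.3 to 35.6 in treated R6/2 and 30.4 to 36.0 in vehicle R6/2 mice. Levels are given as CPM, the counts of a gene per 1e6 counts of its library after TMM scaling, and a gene was called at an adjusted p under 0.05 in edgeR's quasi-likelihood test with Benjamini-Hochberg adjustment over all 17394 genes tested. Fold changes are log2 values of treated R6/2 minus WT, each with its standard error (SE). The scaling matters for direction: TMM factors were 0.931 to 0.954 in WT and 1.02 to 1.07 in treated libraries. With library totals alone the median log2 fold change of all genes moved from 0.02 to 0.16 (7541 genes called higher and 2822 lower), so small changes are read relative to the TMM scale.

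3 libraries stood apart and are named before the results they touch. Treated replicate 5, a female, had 928 genes more than 1 log2 unit from its group median, against 82 to 148 in the other treated libraries. WT replicate 1, a male, had 421 such genes, against 114 to 183 in the other WT libraries. WT replicate 8, a female, did not stand apart over all genes, but its summed level of 24 interferon-response genes was 280 CPM, against 136 to 175 CPM in the other WT libraries. Many of the counts that rest on these libraries are given with and without them, but not all.

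The genotype labels were checked first. Gm12695 (chr4:96723647-96785186, mm10, minus strand), the mouse gene at the known insertion site of the transgene, was 0.0303, 0.0671 and 0.16 CPM (lowest, median, highest) in WT libraries and 3.38, 3.94 and 4.77 CPM in treated ones. The groups did not overlap, and the log2 fold change was 5.46 ± 0.19 (SE, adjusted p = 7.66e-16). Htt, the endogenous huntingtin gene, was 137, 212 and 228 CPM in WT and 208, 236 and 257 CPM in treated libraries. These ranges overlapped, WT replicate 1 being the lowest library, and the log2 fold change was 0.21 ± 0.082 (adjusted p = 0.0333). This call was lost in 9 of 37 alternatives, among them the fits without WT replicate 5 (adjusted p = 0.0609) or without treated replicate 1, 2, 3 or 7 (0.0504 to 0.063). Kmo, the gene of the enzyme the compound inhibits, was too low to be tested, at 0.0605, 0.147 and 0.679 CPM in WT and 0.0286, 0.184 and 0.657 CPM in treated libraries.

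More than every second gene tested differed between treated R6/2 and WT striatum. Of 17394 genes 9208 were called (52.9%), 4832 higher (27.8%) and 4376 lower (25.2%). At a change of 2-fold or more the balance lay on the side of loss, with 695 genes lower and 258 higher. Without treated replicate 5, 206 of these 258 remained called at that size. Without both treated replicate 5 and WT replicate 1, 54.7% of the genes tested were called, 4886 higher and 4566 lower, and 8485 of the original calls were kept. For 3531 genes (20.3%) the 8 treated and 8 WT values did not overlap, and 3530 of those were called, 1770 higher and 1760 lower. The median SE of a log2 fold change was 0.0829. It holds both the spread between mice and counting error, which weighs most for genes at low levels.

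The genes that best separated the groups included steep losses, transcripts that WT striatum barely held and some increases from a measurable base. Genes named here and below as the largest changes were picked by rule for groups that did not overlap. Their separation was therefore a condition of choice. Gpx6, a glutathione peroxidase gene (chr13:21312125-21319624, mm10, plus strand), was 4.6, 6.97 and 8.73 CPM in WT and 0.0262, 0.114 and 0.211 CPM in treated libraries. No treated library came near the WT range, and the log2 fold change of -5.82 ± 0.24 (adjusted p = 1.63e-14) was the largest decrease among genes named by the selection rule. Ryr1, a calcium release channel of the endoplasmic reticulum (chr7:29003344-29125179, mm10, minus strand), was 103, 138 and 175 CPM in WT and 6.35, 9.92 and 12.1 CPM in treated libraries. Its log2 fold change was -3.89 ± 0.14 (adjusted p = 1.17e-15). Scn4b, a sodium channel beta subunit enriched in projection neurons, was 1473, 1917 and 2112 CPM in WT and 34.4, 214 and 258 CPM in treated libraries. Treated replicate 5 gave the lowest value, and the other 7 treated libraries were at 175 CPM or more. With that library Scn4b changed by -3.21 ± 0.25 (adjusted p = 3.97e-10) and without it by -3.04 (adjusted p = 1.31e-16).

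**Figure D1:**
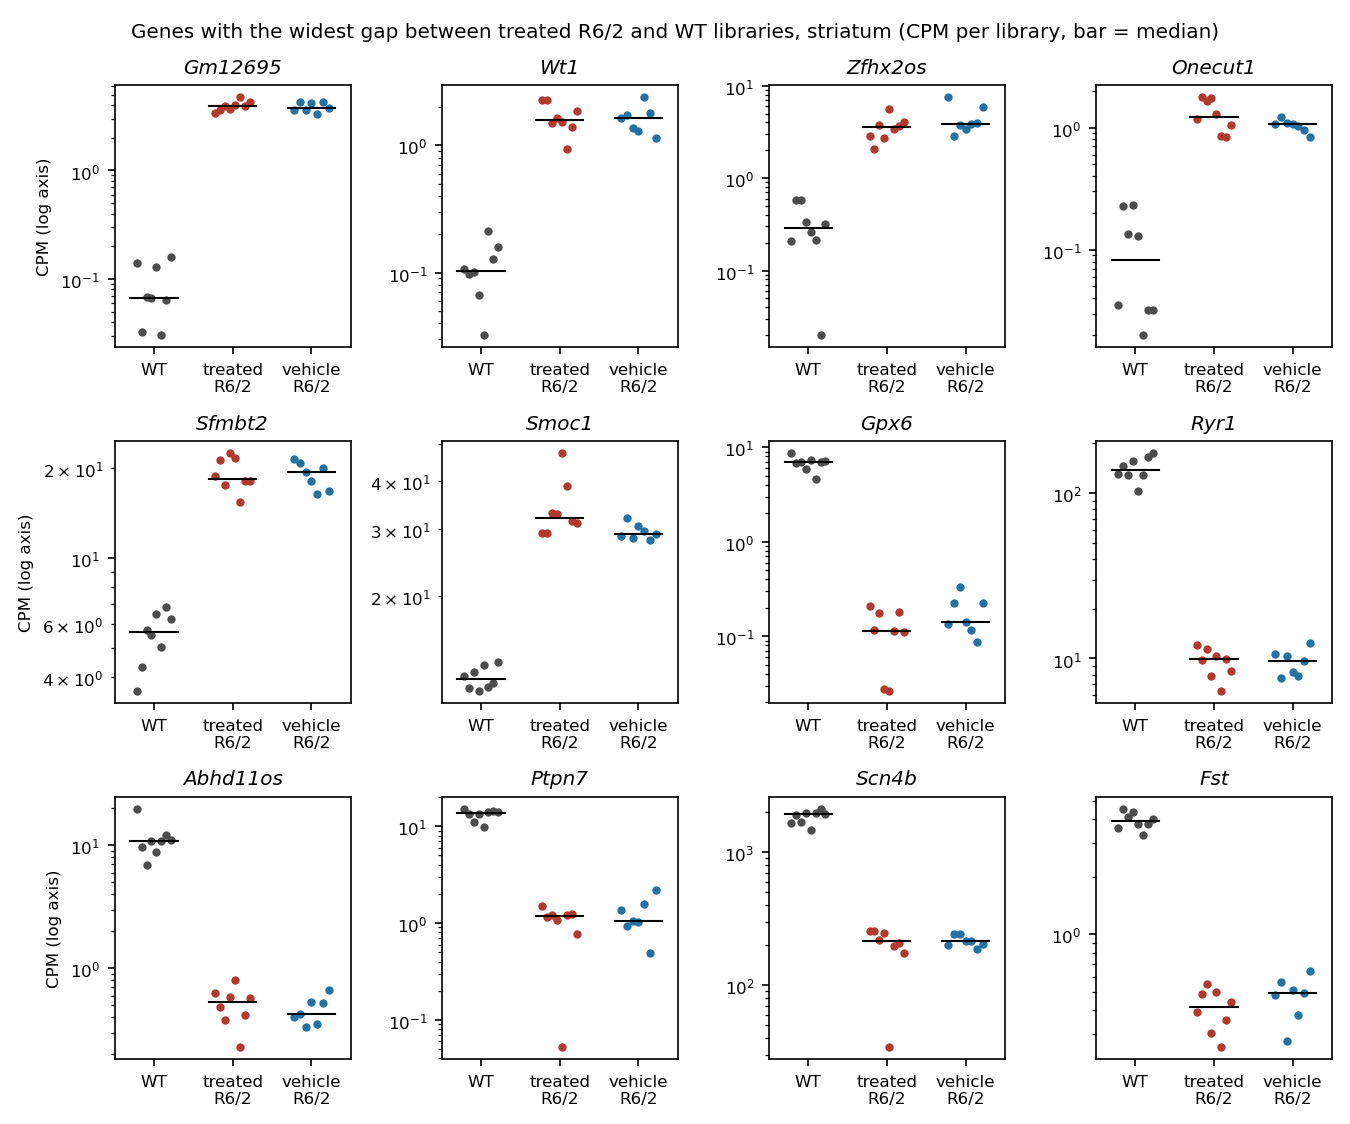
CPM per library on log axes for the 6 genes in each direction with the widest gap between treated R6/2 (red) and WT (grey) libraries, with vehicle R6/2 (blue); bars are group medians, and values of 0 are drawn at 0.02. Treated libraries of Gpx6 reach at most 0.211 CPM where WT libraries start at 4.6 CPM.

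Among the other steep decreases, Ptpn7, a tyrosine phosphatase gene, had a WT range of 9.93 to 15.1 CPM and a treated range of 0.0523 to 1.51 CPM. Fst, which encodes the activin antagonist follistatin, ranged from 3.3 to 4.52 CPM in WT and from 0.257 to 0.552 CPM in treated libraries. Abhd11os (chr5:135012114-135013253, mm10, minus strand) ranged from 6.96 to 19.8 CPM in WT and from 0.229 to 0.811 CPM in treated libraries. Since it is not known whether the libraries kept strand, reads of this antisense locus cannot be told apart from those of its neighbour on the other strand. Genes lower by a factor of 12 or more at low levels included Sec14l3 (log2 fold change -4.26 ± 0.46), Tmprss6 (-4.07 ± 0.34), Wnt8b (-4.0 ± 0.52), Dgat2l6 (-3.83 ± 0.47) and Il2rb (-3.66 ± 0.27). Wnt8b, a Wnt ligand gene, was at or below 0.418 CPM in every treated library and at or above 0.514 CPM in every WT library, with treated replicate 5 the highest of its group.

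The largest increases began from levels near 0. Pou4f1, a transcription factor of sensory and habenular neurons, was 0.0, 0.0332 and 0.141 CPM in WT and 0.183, 0.926 and 1.72 CPM in treated libraries. By the rule that picked it, every treated library lay above every WT library. The log2 fold change was 4.14 ± 0.48 (adjusted p = 1.82e-07). Wt1, the Wilms tumour transcription factor of kidney and gonad, was 0.0323, 0.104 and 0.212 CPM in WT and 0.943, 1.58 and 2.29 CPM in treated libraries, a log2 fold change of 3.83 ± 0.24 (adjusted p = 1.54e-11). Onecut1, known from liver and motor neuron development, had a log2 fold change of 3.61 ± 0.34 and did not pass 0.233 CPM in any WT library. Zfhx2os, antisense to a homeobox gene (chr14:55053869-55075873, mm10, plus strand), ranged from 0.0 to 0.586 CPM in WT and from 2.09 to 5.65 CPM in treated libraries, with the same limit on strand as Abhd11os.

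Increases from a measurable base were smaller. Sfmbt2, a Polycomb-related gene, rose from 3.59, 5.64 and 6.87 CPM in WT to 15.4, 18.4 and 22.4 CPM in treated libraries, a log2 fold change of 1.8 ± 0.11. Smoc1, which encodes a secreted calcium-binding matrix protein, rose from 11.2, 12.1 and 13.4 CPM to 29.2, 32.0 and 47.5 CPM, a log2 fold change of 1.49 ± 0.081. Both were picked by rule for a wide gap between the groups. Ppl, which encodes the desmosomal plakin periplakin, had a log2 fold change of 2.36 ± 0.25, Tnfrsf13c, a TNF receptor family gene of B cells, 2.5 ± 0.27, and Matn1, a cartilage matrix gene, 2.15 ± 0.24. Crnde, a noncoding transcript, rose by 1.95 ± 0.17 and Smim24 by 1.85 ± 0.15. AW551984 met the same rule largely through 1 library: treated replicate 5 was at 135 CPM and the others between 15.1 and 26.5 CPM, and its log2 fold change of 1.94 ± 0.38 was 1.33 without that library (adjusted p = 1.44e-05).

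Members of 30 gene lists were then counted by role, each count to be read against the shares of all genes called higher (27.8%) and lower (25.2%), since the median of all genes was 0.02. The bar chart of list shares gives all 30.

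**Figure D2:**
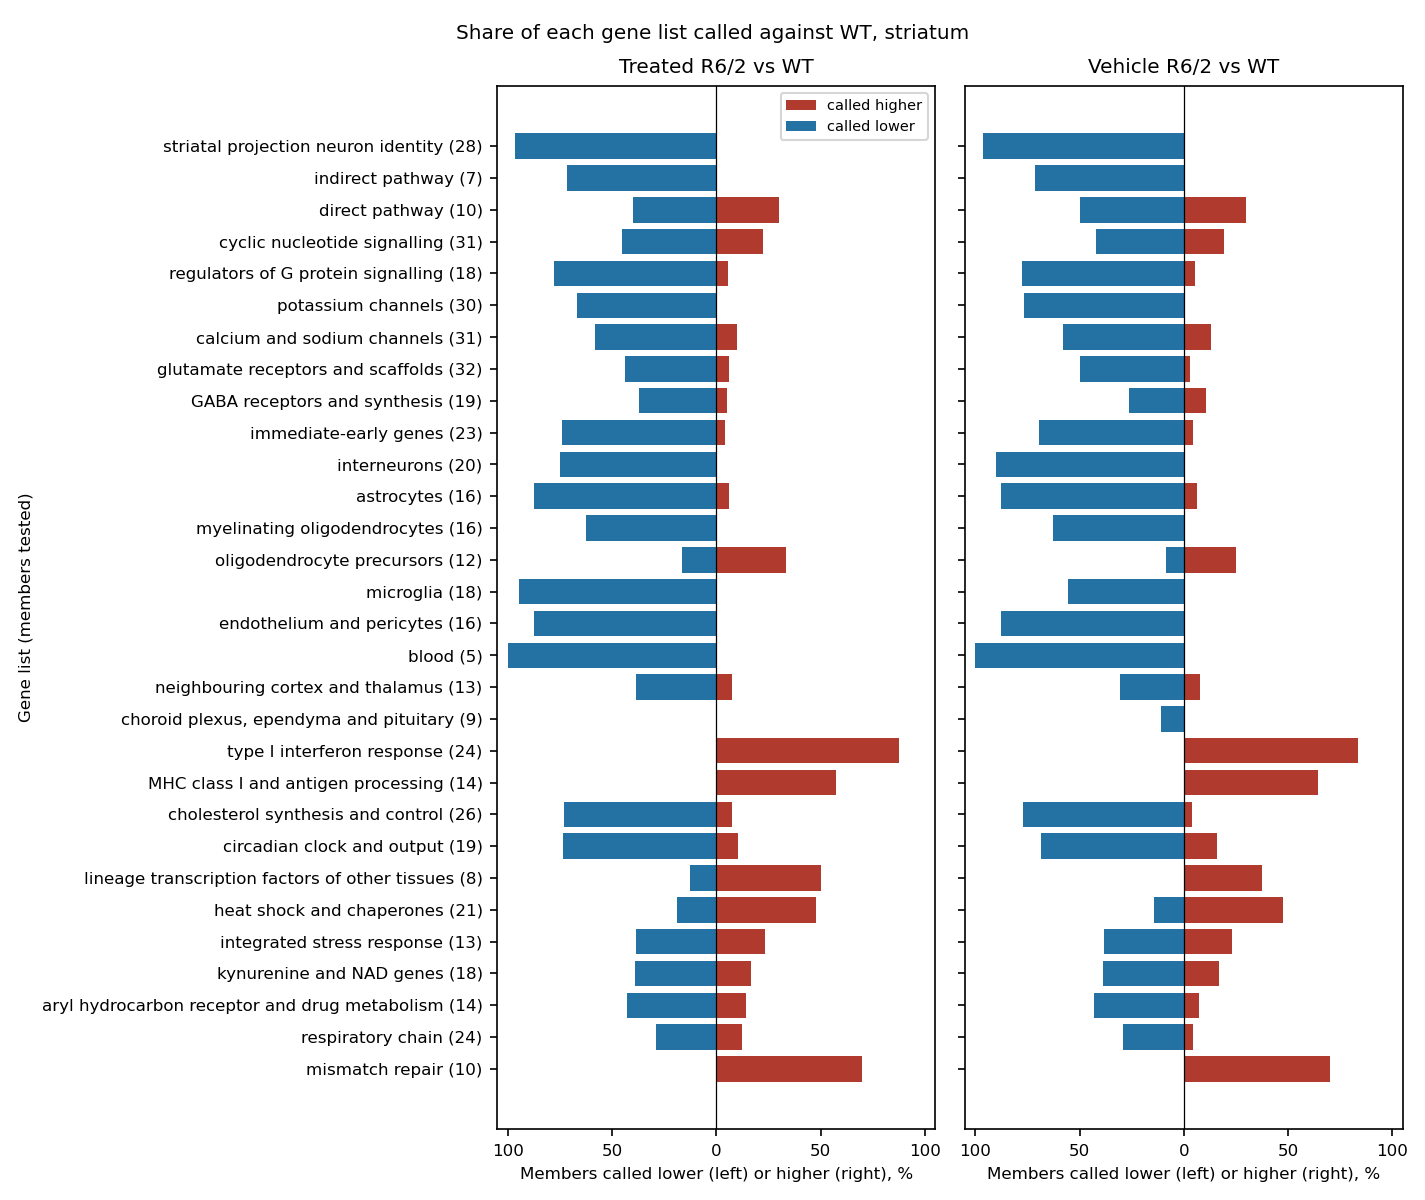
Share of the tested members of each gene list called higher (red, right) or lower (blue, left) in treated R6/2 (left panel) and vehicle R6/2 (right panel) against the same 8 WT libraries; the number tested is in brackets. In treated mice 27 of 28 projection neuron genes were called lower, and 21 of 24 interferon-response genes higher.

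Genes of projection neuron identity fell almost without exception: 27 of 28 members were lower, with a median log2 fold change of -1.43. Ppp1r1b, which encodes the dopamine- and cAMP-regulated phosphoprotein DARPP-32, was 1551, 1822 and 2212 CPM in WT and 127, 609 and 804 CPM in treated libraries. The groups were separate, treated replicate 5 was lowest, and the other treated libraries were at 507 CPM or more. The log2 fold change was -1.66 ± 0.21 (adjusted p = 8.48e-07), and -1.51 without replicate 5 (adjusted p = 6.4e-12). Cnr1, the CB1 cannabinoid receptor gene, was 355, 440 and 625 CPM in WT and 87.4, 102 and 115 CPM in treated libraries, a log2 fold change of -2.17 ± 0.085. Treated replicate 5 was not the extreme library for Cnr1. Rasgrp2, an exchange factor of Ras-family GTPases, fell by 1.99 ± 0.14. Foxp2, a transcription factor of these neurons, was the single member not called, at 66.1, 81.8 and 86.3 CPM in WT and 43.9, 77.3 and 90.4 CPM in treated libraries (-0.08 ± 0.10, adjusted p = 0.525), and the sign of this small difference changed with the scaling.

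Of 7 indirect pathway genes tested 5 were lower (median -1.78). Of 10 direct pathway genes 4 were lower and 3 higher (median -0.17), and with library totals alone 4 were lower and 4 higher (median -0.03), so no direction is given for that list. The difference between the lists was not tested. Penk, the enkephalin precursor, was 1262, 1444 and 1754 CPM in WT and 142, 344 and 391 CPM in treated libraries, a log2 fold change of -2.19 ± 0.14. Adora2a, an adenosine receptor gene, was 282, 358 and 401 CPM in WT and 21.5, 93.6 and 124 CPM in treated libraries (-2.02 ± 0.21). Drd2, the dopamine D2 receptor gene, changed by -1.48 ± 0.17, Gpr6, an orphan receptor of the indirect pathway, by -1.78 ± 0.19 and Upb1, which encodes beta-ureidopropionase, by -2.17 ± 0.17.

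On the direct side Drd1, the dopamine D1 receptor gene, was 245, 293 and 309 CPM in WT and 34.6, 109 and 132 CPM in treated libraries. Its log2 fold change of -1.48 ± 0.16 (adjusted p = 6.23e-08) equalled that of Drd2 to the second decimal. Chrm4, the muscarinic M4 receptor gene, fell by 1.68 ± 0.11 and Pdyn, the dynorphin precursor, by 0.68 ± 0.13. Tac1, which encodes substance P, was 152, 193 and 233 CPM in WT and 60.5, 168 and 217 CPM in treated libraries and was not called (-0.21 ± 0.16, adjusted p = 0.272). Only treated replicate 5 was below 149 CPM. Isl1, the transcription factor that directs direct-pathway fate, rose from 17.1, 19.2 and 21.8 CPM to 21.6, 23.0 and 29.1 CPM (0.33 ± 0.072, adjusted p = 0.000458), and Eya1, a transcriptional coactivator, rose by 0.55 ± 0.13. Ebf1, a factor of direct-pathway neurons, was not called with all libraries (0.19 ± 0.14, adjusted p = 0.253). Treated replicate 5 was at 9.99 CPM and the other 7 at 25.9 to 31.7 CPM, and without it Ebf1 was called higher (0.32, adjusted p = 3.72e-05).

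**Figure D3:**
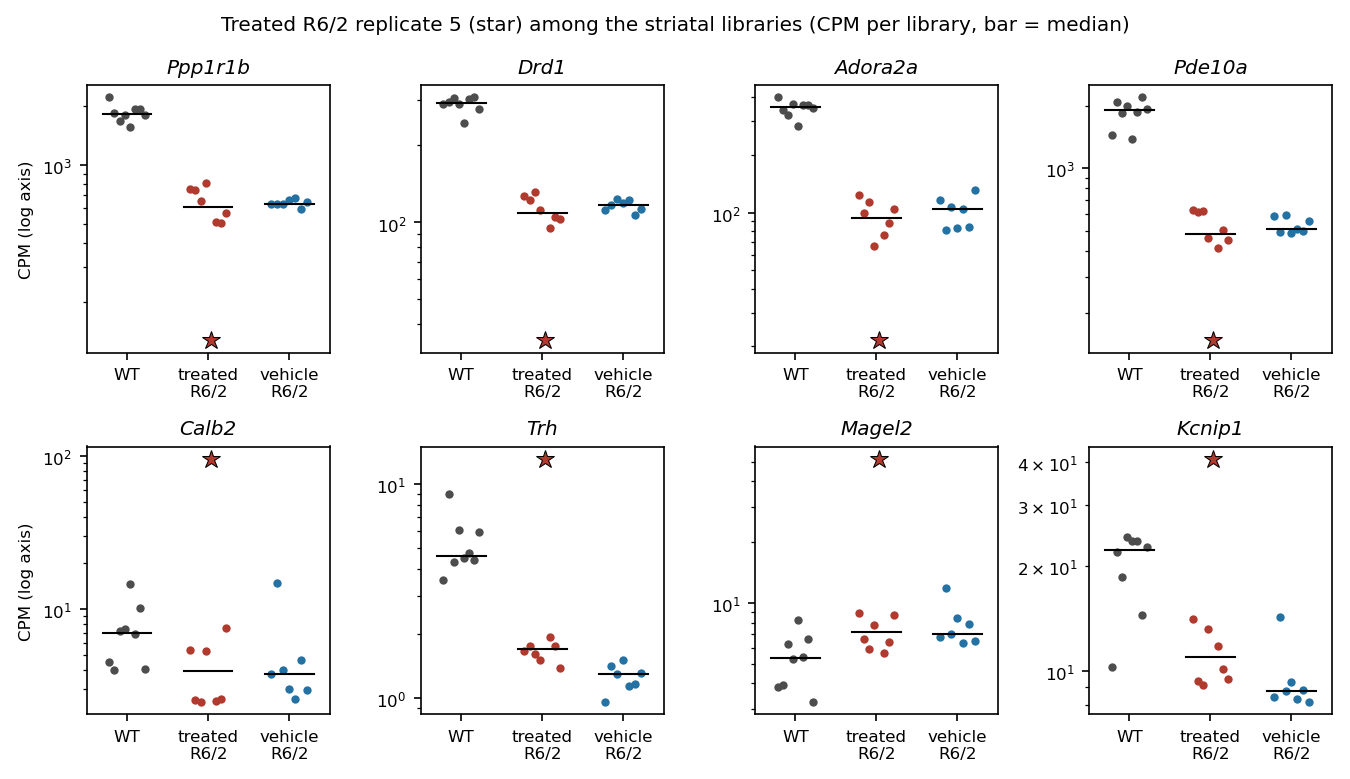
CPM per library on log axes for 4 striatal genes (top) and 4 genes that are high in treated replicate 5 (bottom, chosen after their values were seen); the star marks that library and bars are group medians. For Calb2 the starred library is at 96.4 CPM and the other treated libraries reach at most 7.52 CPM.

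Treated replicate 5 had the lowest treated level of every striatal marker shown in that plot and high levels of transcripts rare in the other libraries. Calb2, the calretinin gene, was 96.4 CPM in it and 2.47 to 7.52 CPM in the other treated libraries. Genes singled out after their values were seen gave the same picture: Prlr, the prolactin receptor gene, was 21.4 CPM against at most 2.75 CPM, Gal, the galanin gene, 5.75 against at most 0.581, and Zic4, a transcription factor gene, 30.7 against at most 3.57. Its summed level of the 28 projection neuron genes was 3556 CPM, against 8318 to 10662 CPM in the other treated libraries. For the 13 markers of neighbouring cortex and thalamus it was 338 CPM, against 119 to 204 CPM in the other treated and 174 to 477 CPM in WT libraries. Without this library the projection neuron list still had 27 of 28 members lower, with a median of -1.30.

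Of 31 cyclic nucleotide genes 14 were lower and 7 higher, and with library totals alone 9 were lower and 9 higher. Without treated replicate 5 and WT replicate 1, 17 were lower and 6 higher. Pde10a, the phosphodiesterase of projection neurons, was 1375, 1900 and 2197 CPM in WT and 148, 484 and 626 CPM in treated libraries, a log2 fold change of -1.94 ± 0.19. Adcy5, the main striatal adenylyl cyclase gene, changed by -1.52 ± 0.12. The higher members were mostly subunits of protein kinase A: Prkacb, a catalytic subunit, rose from 486, 608 and 629 CPM in WT to a median of 767 and a highest value of 794 CPM in treated libraries (0.38 ± 0.048, adjusted p = 7.26e-07), and Prkar1b, a regulatory subunit, rose by 0.43 ± 0.061. Treated and WT libraries did not overlap for either.

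Among 18 regulators of G protein signalling 14 were lower and 1 was higher. Rgs11 was 55.6, 61.7 and 72.1 CPM in WT and 9.62, 10.6 and 16.9 CPM in treated libraries (-2.45 ± 0.092). Its highest treated value came from replicate 5. Rgs14 changed by -2.15 ± 0.11 and Rgs4 by -1.95 ± 0.15. The exception, Rgs19, rose from 8.66, 10.5 and 12.2 CPM to 18, 19.1 and 20.9 CPM (0.88 ± 0.062, adjusted p = 1.22e-10) in separate groups.

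Of 30 potassium channel genes 20 were lower and 0 higher, against 25.2% of all genes called lower. Without WT replicate 1 the number lower was 26, and without treated replicate 5 it was 23. Kcnh4, a voltage-gated channel of the ether-a-go-go family, was 60.1, 71.2 and 88.6 CPM in WT and 3.4, 10.6 and 14.2 CPM in treated libraries (-2.83 ± 0.19). Kcnh3, Kcnip2 and Kcnj4 followed at -1.49 ± 0.18, -1.34 ± 0.12 and -1.22 ± 0.16. Of 31 calcium and sodium channel genes 18 were lower and 3 higher, or 15 lower and 8 higher with library totals alone. Itpr1, the inositol trisphosphate receptor gene, changed by -1.16 ± 0.16 while Cacna2d1, an auxiliary calcium channel subunit, rose by 0.31 ± 0.071.

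Among 32 glutamate receptor and scaffold genes 14 were lower and 2 higher, and 22 were lower once treated replicate 5 and WT replicate 1 were left out. Shank3, a postsynaptic scaffold gene, was 407, 419 and 495 CPM in WT and 123, 170 and 208 CPM in treated libraries (-1.31 ± 0.097). Grin2c, an NMDA receptor subunit gene, was 62.1, 65.5 and 77.2 CPM in WT and 22.7, 28.3 and 33.5 CPM in treated libraries (-1.27 ± 0.059). The groups were separate for both. Grm3, a metabotropic receptor, and Homer1, a scaffold that is also activity-regulated, changed by -1.28 ± 0.093 and -1.27 ± 0.12. Shank2 rose by 0.29 ± 0.075 and Grik4, a kainate receptor subunit, by 0.35 ± 0.10.

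Among 19 GABA genes 7 were lower and 1 higher, with a median of 0.02. With library totals alone 3 were lower and 6 higher, so no direction is given for the list. Gabrd, the delta subunit of tonic GABA receptors, was 143, 154 and 184 CPM in WT and 10.9, 45.6 and 50.2 CPM in treated libraries (-1.92 ± 0.18). All treated libraries except replicate 5 were at 41.8 CPM or more. Gabra5 was the 1 member called higher (0.43 ± 0.060), and its lowest treated library, at 27.2 CPM, lay within the WT range of 21.0 to 27.7 CPM. Gad1, a GABA-synthesizing enzyme gene, changed by -0.43 ± 0.068.

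Activity-regulated genes were lower. Of 23 immediate-early genes 17 were lower and 1 higher, with a median of -0.92 that was -0.65 without WT replicate 1. Egr2, a zinc finger factor induced by neuronal activity, was 4.78, 7.76 and 13.1 CPM in WT and 0.268, 0.378 and 1.57 CPM in treated libraries (-4.0 ± 0.33, adjusted p = 1.07e-09). Treated replicate 1 held the highest treated value. Npas4, another activity-induced factor, was 13.2, 14.8 and 47.4 CPM in WT and 3.93, 6.96 and 12.4 CPM in treated libraries (-1.38 ± 0.27). Arc, a regulator of synaptic receptor traffic, was 40.8, 60.4 and 146 CPM in WT and 25.6, 33.1 and 67.2 CPM in treated libraries (-0.93 ± 0.22). WT replicate 1 was the highest WT library for both, and without it and treated replicate 5 Arc changed by -0.55 (adjusted p = 0.00289). Junb changed by -0.97 ± 0.26 and, without the same libraries, by -0.56 (adjusted p = 0.012). Dusp5, a phosphatase of the MAP kinase pathway, went the other way (0.45 ± 0.13).

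Interneuron genes were lower for 15 of 20 members and higher for 0, with a median of -1.0. Without treated replicate 5 and WT replicate 1, 17 were lower. Chat, the acetylcholine-synthesizing enzyme gene, was 32.1, 35.6 and 39.7 CPM in WT and 7.58, 9.93 and 11.6 CPM in treated libraries (-1.86 ± 0.077). Slc5a7, the choline transporter gene, was 64.1, 67.6 and 72.6 CPM in WT and 19, 21.8 and 23.4 CPM in treated libraries (-1.65 ± 0.053). The cholinergic genes were well separated, as was Slc18a3, the vesicular acetylcholine transporter gene (-1.72 ± 0.15). Pthlh, a peptide gene of fast-spiking striatal interneurons, changed by -2.67 ± 0.18, Npy by -1.07 ± 0.11 and Sst, the somatostatin gene, by -0.82 ± 0.098. Pvalb, the parvalbumin gene, was 28.1, 65.9 and 75.0 CPM in WT and 19.1, 26.4 and 43.2 CPM in treated libraries (-1.0 ± 0.22), with overlapping groups.

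Of 16 astrocyte genes 14 were lower and 1 higher (median -0.45). Slc1a2, the main astrocytic glutamate transporter gene, was 3104, 3700 and 4151 CPM in WT and 1397, 1786 and 2061 CPM in treated libraries (-1.03 ± 0.086, adjusted p = 1.41e-09). Glul, which encodes glutamine synthetase, changed by -0.72 ± 0.059, Aldoc by -0.70 ± 0.071 and the gap junction gene Gja1 by -0.69 ± 0.065. S100b rose by 0.32 ± 0.091. Gfap, the intermediate filament gene commonly used as a sign of astrocyte reaction, was 114, 128 and 140 CPM in WT and 89.8, 122 and 138 CPM in treated libraries and was not called (-0.10 ± 0.076, adjusted p = 0.295). Its small difference was positive with library totals alone.

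Myelin genes were lower for 10 of 16 members and higher for 0 (median -0.45). Without treated replicate 5 and WT replicate 1, 8 were lower (median -0.37). Mobp, a structural myelin protein gene, was 1498, 1939 and 2152 CPM in WT and 652, 1073 and 1379 CPM in treated libraries (-0.87 ± 0.10), with separate groups. Mal, a myelin membrane gene, changed by -0.95 ± 0.097, Aspa, which encodes aspartoacylase, by -0.96 ± 0.10 and Fa2h, a sphingolipid hydroxylase gene, by -0.91 ± 0.097. Mog and Mag, which mark mature oligodendrocytes, were not called (-0.11 ± 0.092 and -0.11 ± 0.092, adjusted p = 0.349 and 0.316). Among 12 genes of oligodendrocyte precursors and newly formed oligodendrocytes, 4 were higher and 2 lower, or 5 higher and 0 lower with library totals alone. Enpp6, a marker of newly forming oligodendrocytes, rose from 10.5, 15.3 and 16.9 CPM to 15.9, 21.7 and 28.2 CPM (0.59 ± 0.11, adjusted p = 0.000162), and Bmp4 by 0.49 ± 0.16.

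Microglia markers were lower for 17 of 18 members in treated mice (median -0.37), and their summed level was 645 to 892 CPM in WT and 468 to 630 CPM in treated libraries. With library totals alone 12 were lower (median -0.24), and in the sexes apart 15 in females and 7 in males. Cx3cr1, the fractalkine receptor gene, was 67.5, 71.8 and 85.9 CPM in WT and 42.6, 52.5 and 59.3 CPM in treated libraries. The groups did not overlap, and the log2 fold change was -0.48 ± 0.057 (adjusted p = 2.59e-07). P2ry12, a purinergic receptor of resting microglia, was 45.6, 49.9 and 65.8 CPM in WT and 32.2, 38.5 and 48.8 CPM in treated libraries (-0.39 ± 0.082). Fcrls changed by -0.87 ± 0.21, Aif1, the IBA1 gene, by -0.65 ± 0.17, P2ry13 by -0.54 ± 0.092 and the complement gene C1qb by -0.50 ± 0.13. Ptprc, the CD45 gene of all leukocytes, was not called (0.03 ± 0.12, adjusted p = 0.875), and its sign depended on which libraries were in the fit. Tmem119 was lower by a small margin (-0.22 ± 0.088, adjusted p = 0.0395) and lost its call in 18 of 37 alternatives, among them the fits without WT replicate 1, 4, 5, 6 or 7 or treated replicate 3, 4, 5, 6, 7 or 8 (adjusted p = 0.0514 to 0.106).

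In vehicle R6/2 mice 10 of the 18 microglia markers were called lower against the same WT libraries (median -0.24), and their summed level was 558 to 663 CPM. Without WT replicate 1 the number lower was 16 in treated and 6 in vehicle mice. Tested directly between treated and vehicle R6/2 mice, 0 of the 18 differed after adjustment (edgeR's quasi-likelihood test), and 1 had an unadjusted p under 0.05. That gene was Cx3cr1, lower in treated mice by 0.18 on the log2 scale (difference -0.178, 95% interval -0.30 to -0.055, unadjusted p = 0.0059, adjusted p = 1.0). A greater loss of microglia markers in treated mice was therefore not shown.

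**Figure D4:**
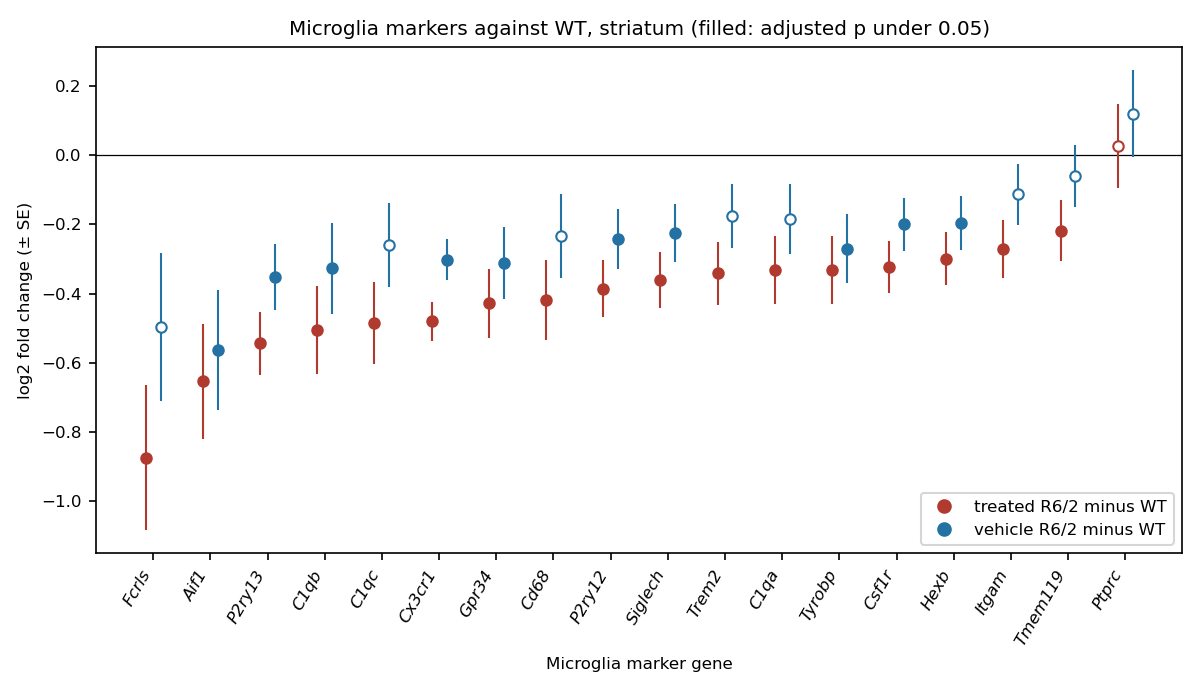
Log2 fold changes against WT, with SE bars, of 18 microglia markers in treated R6/2 (red) and vehicle R6/2 (blue) striatum; filled points passed an adjusted p under 0.05. In treated mice 17 points are filled and in vehicle mice 10, all of them below 0.

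Vessel and blood genes were lower too. Of 16 genes of endothelium and pericytes 14 were lower and 0 higher (median -0.39), led by Emcn (-0.62 ± 0.11), the tight junction gene Cldn5 (-0.55 ± 0.14) and the pericyte channel gene Kcnj8 (-0.52 ± 0.13). All 5 blood genes were lower (median -1.28), of which 4 remained called without treated replicate 5 and WT replicate 1. Hbb-bs, an adult globin gene whose reads may be shared with its near-identical copy, was 47.0, 60.9 and 125 CPM in WT and 26.1, 29.6 and 37.3 CPM in treated libraries (-1.19 ± 0.16). Alas2, the haem synthesis gene of red cells, changed by -1.40 ± 0.18. How much blood each dissected tissue held was not measured.

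Markers of neighbouring tissue varied between libraries. Of 13 cortex and thalamus genes 5 were lower and 1 higher, and with library totals alone 2 were lower and 1 higher. Prkcd, a thalamic marker, was 15.1, 39.2 and 177 CPM in WT and 11.7, 22 and 38.9 CPM in treated libraries (-1.27 ± 0.45, adjusted p = 0.02). This call was lost in 7 of 37 alternatives, among them the fits without WT replicate 2 (-0.87, adjusted p = 0.109) and without WT replicate 5 (-0.91, adjusted p = 0.071). Of 9 genes of choroid plexus, ependyma and pituitary 0 were called in treated mice by edgeR's quasi-likelihood test or by DESeq2's test, and 0 had an unadjusted p under 0.05 in edgeR's test. In other fits with edgeR 1 of them was called, higher with the run tag as a term, with library totals alone and in females, and lower without treated replicate 5.

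Interferon-response genes were higher. Of 24 members 21 were called higher and 0 lower (median 0.77), against 27.8% of all genes called higher. Type I interferon acts through a complex of transcription factors that includes STAT2 and IRF9 and binds an element of paired GAAA repeats in promoters. This element, GAAA, any 2 bases and GAAA on either strand, was sought in RefSeq promoters of 300 bases. At least 1 promoter held it for 11 of 18 interferon-list genes with a promoter (61.1%) and 3.99% of all 27025 genes. The Irf7 promoter holds 0 matches. Ifit1, an RNA-binding effector, carries the element in a pair. Its promoter, from RefSeq on GRCm38.p6 (chr19:34640639-34640938, plus strand, 250 bases before to 50 after the start), is printed with the matches in capitals, both of them on the minus strand.

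Ifit1 promoter: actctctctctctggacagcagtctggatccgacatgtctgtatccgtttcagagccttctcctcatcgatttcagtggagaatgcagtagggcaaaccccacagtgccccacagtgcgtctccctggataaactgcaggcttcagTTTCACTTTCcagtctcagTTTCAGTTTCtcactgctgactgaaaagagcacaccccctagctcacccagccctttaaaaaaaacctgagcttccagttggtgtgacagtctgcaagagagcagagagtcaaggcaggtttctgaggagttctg

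Ifit1 was 1.36, 2.19 and 8.89 CPM in WT and 4.68, 8.28 and 12.0 CPM in treated libraries. WT replicate 8 was the highest WT library, and the other 7 reached at most 3.26 CPM, below every treated library. The log2 fold change was 1.43 ± 0.28 (adjusted p = 0.000196). Irf7, the factor that amplifies interferon transcription, was 0.969, 1.44 and 5.78 CPM in WT and 4.83, 6.59 and 7.62 CPM in treated libraries (1.63 ± 0.28), and again only WT replicate 8 overlapped the treated range. Usp18, a negative regulator of the receptor, was 0.575, 0.839 and 4.91 CPM in WT and 1.99, 4.01 and 5.81 CPM in treated libraries (1.57 ± 0.34).

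Ddx58, the RNA sensor RIG-I, was separate in all libraries, at 4.96, 6.65 and 10.3 CPM in WT and 10.4, 12.8 and 15 CPM in treated ones (0.87 ± 0.11). Rtp4 changed by 1.32 ± 0.19, Ifi44 by 1.44 ± 0.35 and Oas1a by 1.29 ± 0.28. Stat2 was not called (0.02 ± 0.047, adjusted p = 0.709), nor were Isg15 (0.46 ± 0.25, adjusted p = 0.119) and Trim30a (0.33 ± 0.16, adjusted p = 0.0905). Without WT replicate 8, 23 of 24 members were called higher in treated mice (median 0.93) and 23 in vehicle mice (median 0.94), against 20 in vehicle mice with all libraries. Without treated replicate 5, 19 of the 24 were called in treated mice.

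**Figure D5:**
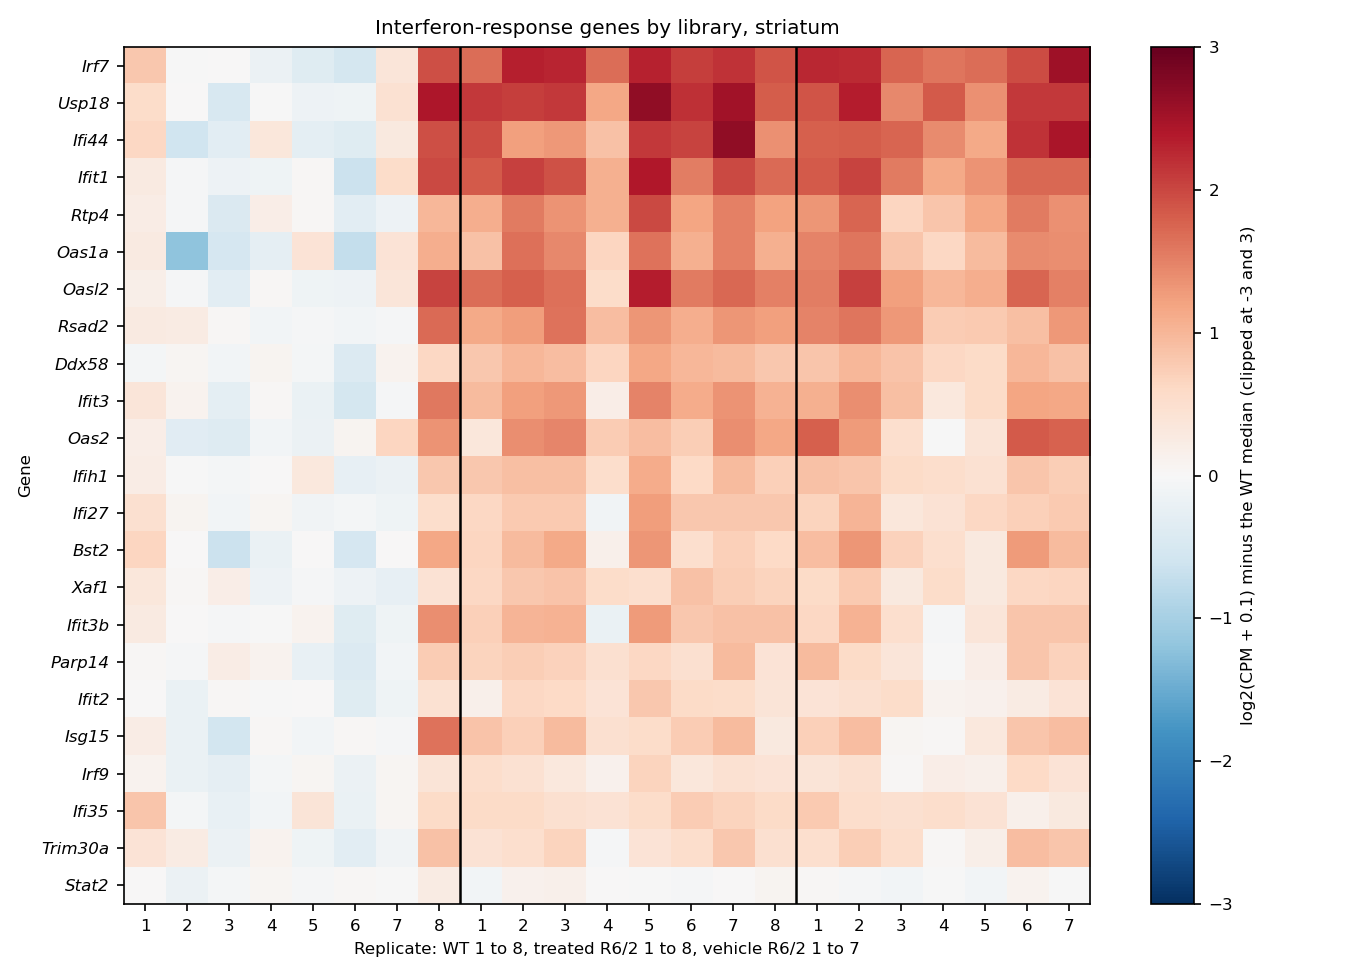
Level of 23 of the 24 interferon-response genes in each striatal library as log2(CPM + 0.1) minus the median of the 8 WT libraries; vertical lines divide WT, treated R6/2 and vehicle R6/2 libraries, and genes are ordered by their fold change in treated mice. WT replicate 8 is the WT column nearest to the R6/2 libraries, with a summed level over all 24 genes of 280 CPM against 136 to 175 CPM in the other WT libraries.

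Genes of MHC class I and antigen processing were higher for 8 of 14 members and lower for 0 (median 0.35). B2m, the invariant light chain, was 38.5, 49.3 and 74.7 CPM in WT and 53.6, 68.0 and 95.2 CPM in treated libraries (0.44 ± 0.12, adjusted p = 0.00418), with overlap. Nlrc5, the transactivator of class I genes, changed by 0.90 ± 0.26, the immunoproteasome gene Psmb10 by 0.59 ± 0.10, the peptide transporter gene Tap1 by 0.58 ± 0.14 and H2-D1 by 0.61 ± 0.21. Reads of H2-D1 may be shared with other class I genes. WT replicate 8 was the highest WT library for Nlrc5 as well, at 2.21 CPM against at most 1.37 CPM.

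Cholesterol genes were lower for 19 of 26 members and higher for 2 (median -0.37). Msmo1, a sterol oxidase of the synthesis pathway, was 72.4, 83.9 and 94.2 CPM in WT and 31.3, 36.8 and 50.5 CPM in treated libraries (-1.14 ± 0.073, adjusted p = 2.52e-11). Insig1, a sterol sensor, changed by -1.0 ± 0.12 and the isomerase gene Idi1 by -0.86 ± 0.085.

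Clock genes were lower for 14 of 19 members and higher for 2 (median -0.49). Circadian repressors and output factors are driven by CLOCK and BMAL1 through the E-box CACGTG. At least 1 promoter held that motif for 5 of 17 clock-list genes (29.4%) and 8.09% of all genes. The Dbp promoter holds 0. Ciart, a circadian repressor gene, holds 3 such motifs. Its RefSeq promoter (GRCm38.p6, chr3:95882179-95882478, minus strand) is printed with these in capitals.

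Ciart promoter: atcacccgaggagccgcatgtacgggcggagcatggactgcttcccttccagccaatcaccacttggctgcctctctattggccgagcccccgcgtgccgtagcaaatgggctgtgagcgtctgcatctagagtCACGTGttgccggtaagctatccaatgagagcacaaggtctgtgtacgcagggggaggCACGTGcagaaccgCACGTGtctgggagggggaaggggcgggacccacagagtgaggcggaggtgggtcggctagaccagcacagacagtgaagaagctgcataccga

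Ciart was 15.1, 21.1 and 24.0 CPM in WT and 7.61, 9.03 and 11.6 CPM in treated libraries (-1.17 ± 0.096, adjusted p = 1.27e-09). Dbp, a clock output factor, was 137, 153 and 211 CPM in WT and 40.5, 59.7 and 67.0 CPM in treated libraries (-1.47 ± 0.094). Npas2, a partner of BMAL1 in forebrain, was 63.7, 73.9 and 81.0 CPM in WT and 16.2, 32.2 and 41.2 CPM in treated libraries (-1.21 ± 0.12). All 3 were separate between groups. Cry1, a repressor of the loop, and Nfil3, which opposes Dbp at its target sites, were the 2 members called higher (0.29 ± 0.072 and 0.49 ± 0.11). The time of day at which tissue was taken is not given in the labels.

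Several smaller lists completed the description. Of 26 transcription factors of other tissues only 8 passed the filter on low counts. Of those 4 were higher (Pou4f1, Wt1, Onecut1 and Twist1, the last by 1.02 ± 0.35) and 1 lower (Tbx2, -0.50 ± 0.16). Without treated replicate 5 and WT replicate 1, 5 were higher and 0 lower. A member silent in WT could pass that filter only through the R6/2 libraries, so these counts describe the members tested and not the list. DNA mismatch repair genes, which act on the stability of CAG repeats, were higher for 7 of 10 members and lower for 0 (median 0.31). Mlh3 rose by 0.49 ± 0.057, Pms1 by 0.48 ± 0.063 and Msh6 by 0.34 ± 0.046. Treated and WT libraries did not overlap for Mlh3.

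Of 21 chaperone genes 10 were higher and 4 lower (median 0.13), and with library totals alone 12 were higher and 1 lower. Hspa5, the endoplasmic reticulum chaperone BiP, rose from 197, 217 and 250 CPM to 254, 279 and 318 CPM (0.34 ± 0.074). Dnajb1, an HSP40 co-chaperone, changed by 0.36 ± 0.057 and Hspa1a by 0.54 ± 0.20. Hspa1a was not called without WT replicate 2 (adjusted p = 0.0507), treated replicate 4 (0.0512) or treated replicate 5 (0.0558). Of 13 genes of the integrated stress response 5 were lower and 3 higher (median -0.06, and 0.08 with library totals alone): Trib3, a pseudokinase induced by this pathway, fell by 1.65 ± 0.20, the cystine transporter gene Slc7a11 by 0.56 ± 0.11, and Sesn2 rose by 0.45 ± 0.093. Respiratory chain genes stayed near the median of all genes, with 7 of 24 lower and 3 higher (median -0.04). With library totals alone this split was 1 lower and 12 higher, so no direction is given for the list. Ndufs3 fell by 0.32 ± 0.049 and Sdha rose by 0.22 ± 0.035 on the TMM scale.

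Genes of the pathway that the compound acts on were also counted. Of 18 kynurenine and NAD genes tested, from 24 listed, 7 were lower and 3 higher (median -0.15). With library totals alone 6 were lower and 6 higher (median -0.01), so no direction is given for the list. Ido1, which opens the kynurenine pathway, was 18.8, 22.8 and 28.8 CPM in WT and 1.44, 8.07 and 10.1 CPM in treated libraries (-1.66 ± 0.22, adjusted p = 1.21e-06). It changed by -1.49 in vehicle R6/2 mice. Afmid, the formamidase that makes kynurenine, rose from 0.834, 1.55 and 2.32 CPM to 2.98, 4.1 and 5.91 CPM (1.37 ± 0.18), and by 1.2 in vehicle mice. Ido2 changed by -0.61 ± 0.14 and Qprt, an enzyme of NAD synthesis, by -0.84 ± 0.27 from a WT level under 0.582 CPM. Kynurenines are ligands of the aryl hydrocarbon receptor, and of 14 genes of that receptor and of drug metabolism 6 were lower and 2 higher, or 5 lower and 6 higher with library totals alone, so no direction is given for the list. Ahrr, the receptor's repressor and target, rose from 0.563, 0.626 and 0.913 CPM to 0.837, 1.13 and 1.5 CPM (0.83 ± 0.14). In vehicle R6/2 mice it changed by 0.89. Cyp2d22 and Gstm1 changed by -0.67 ± 0.10 and -0.57 ± 0.089.

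The vehicle R6/2 libraries were then set against the same 8 WT libraries, so the 2 comparisons share their controls. In vehicle mice 8735 genes were called (50.2%), 4480 higher and 4255 lower. Called in both comparisons were 7912 genes, 4133 higher and 3779 lower, which is 85.9% of the treated calls and 90.6% of the vehicle calls. Called in treated mice alone were 1296 genes, and in vehicle mice alone 823. A stricter count took the 38 fits of treated R6/2 against WT, made with other filters, scalings, tools and libraries: 15093 genes were tested in every fit and 4043 of them were called in every one, 2119 higher and 1924 lower. Of these 4043, 4033 were also called in vehicle mice. They include all 12 genes with the widest gap between groups. Those 12 were picked for that gap in the same libraries, so their calls are no separate support.

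The genes called in treated mice alone were mostly small changes. Their median absolute log2 fold change was 0.28 in treated and 0.17 in vehicle mice, 49 of 1296 changed by 1 log2 unit or more, and 517 had an adjusted p under 0.1 in vehicle mice. Tested directly between treated and vehicle R6/2 mice, 0 of them passed the adjusted threshold and 82 had an unadjusted p under 0.05. Of all 17394 genes 464 had such a p, and the 1296 were picked for a call in 1 group alone. Without treated replicate 5, 329 of the 1296 were no longer called in treated mice. Without WT replicate 1, 160 were called in vehicle mice as well.

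The treated-alone genes with the largest changes varied widely between libraries. Plin4, a lipid droplet gene, was 4.33, 6.8 and 20.1 CPM in WT, 7.72, 15 and 46.7 CPM in treated and 2.88, 11.7 and 28.1 CPM in vehicle libraries (1.37 ± 0.46 in treated, adjusted p = 0.0153, and 0.83 ± 0.48 in vehicle mice, adjusted p = 0.158). All 3 ranges overlapped, and Plin4 was not called without treated replicate 3 (0.99, adjusted p = 0.0744). Myh6, a cardiac myosin gene, was the 1 of these genes with separate groups, at 1.97, 3.17 and 3.87 CPM in WT and 0.755, 1.27 and 1.67 CPM in treated libraries (-1.26 ± 0.30, adjusted p = 0.00118). Vehicle libraries spanned 0.876 to 5.58 CPM. Esr1, the oestrogen receptor alpha gene, was 11.4 CPM in treated replicate 5 and 1.52 to 2.44 CPM in the other treated libraries, and its log2 fold change of 1.12 ± 0.32 was 0.58 without that library (adjusted p = 0.00777). Magel2, a gene of hypothalamic neurons, was 51.8 CPM in the same library and 5.63 to 8.87 CPM in the others. Its change of 1.11 ± 0.37 was 0.38 without treated replicate 5 and WT replicate 1 and was then not called (adjusted p = 0.0711).

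March3, a ubiquitin ligase gene, was 1.03, 1.71 and 5.14 CPM in WT and 1.22, 5.98 and 10.9 CPM in treated libraries (adjusted p = 0.0288). It lost its call without WT replicate 4, 5, 6 or 8 or treated replicate 5 or 8 (adjusted p = 0.0508 to 0.0618). Plcz1, a phospholipase gene known from sperm, changed by 1.15 ± 0.32. The remaining members of this set were the pseudogenes Sms-ps (2.32 ± 0.83, adjusted p = 0.0229) and Rpsa-ps10 (-1.29 ± 0.37, adjusted p = 0.00513), whose reads may belong to their parent genes. Sms-ps was not called without treated replicate 3 (adjusted p = 0.056). Rpsa-ps10 was at most 63.5 CPM in treated libraries and reached 298 CPM in WT and 226 CPM in vehicle libraries.

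The genes called in vehicle mice alone had a median absolute log2 fold change of 0.29 in vehicle and 0.17 in treated mice. Once treated replicate 5 was left out, 271 of these 823 were called in treated mice. Over all genes 9355 were called without that library, against 9208 with it. The 823 were picked for missing the treated call, and the same count was not made for other treated libraries. The 271 therefore do not measure dependence on replicate 5 alone. Several of the largest changes in this set had an extreme value in that library. Trh, the thyrotropin-releasing hormone gene, was 3.56, 4.62 and 8.92 CPM in WT and 0.962, 1.3 and 1.5 CPM in vehicle libraries (-2.14 ± 0.42, adjusted p = 0.000185). In treated mice replicate 5 was at 13.1 CPM and the other 7 at 1.38 to 1.92 CPM. The treated comparison gave -0.89 ± 0.38 (adjusted p = 0.0514) with that library and -1.68 (adjusted p = 1.01e-08) without it.

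Cbln1, a synaptic organizer gene, followed the same pattern, at 13.6 CPM in treated replicate 5 and 0.63 to 3.58 CPM in the others (-0.17 with it, adjusted p = 0.769, and -1.10 without it, adjusted p = 0.00154). Ret, a neurotrophic factor receptor gene, was not called in treated mice with all libraries (adjusted p = 0.182) and was called lower without that library (-0.94, adjusted p = 0.00615). The same held for the peptide genes Cartpt (-1.42, adjusted p = 0.0006) and Pomc (-1.45, adjusted p = 0.0143), the metabotropic receptor gene Grm2 (-1.03, adjusted p = 0.0449) and the nicotinic receptor gene Chrna4 (-0.82, adjusted p = 0.042). For Pomc a WT library stood out as well: WT replicate 5 was at 6.92 CPM and the next highest WT library at 1.94 CPM. Slco2a1, a prostaglandin transporter gene, was not called in treated mice with or without treated replicate 5 (adjusted p = 0.0971 and 0.165). Kcnip1, a channel partner of interneurons, was at 40.8 CPM in treated replicate 5 and 9.09 to 14.1 CPM in the others, and its change was -0.47 ± 0.22 (adjusted p = 0.0804) with it and -0.81 (adjusted p = 2.99e-05) without it.

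Treated and vehicle R6/2 striata were not told apart by the direct test. Of 17394 genes 0 were called (0.0%) by edgeR's quasi-likelihood test. An unadjusted p under 0.05 was seen for 464, a smaller share than the 0.05 set by chance alone. DESeq2 called 1 gene, limma on FPKM values 0, and edgeR in males alone 3. The median SE of this difference was 0.0855, which gives a median 95% half-width of 0.168 on the log2 scale. That half-width is for 1 gene without adjustment, and a call after adjustment over all genes needs a larger difference. The result does not show that the groups are alike.

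Females and males were also fitted apart. In females 35.1% and in males 36.0% of genes tested were called. Of 17259 genes tested in both sexes 6088 were called in females and 6274 in males, and 4360 were called in both, 2164 higher and 2196 lower, which is 71.6% of the female and 69.5% of the male calls. These fits share no library. No gene passed the test of the difference between sexes (0 called, 0.0%, by edgeR's quasi-likelihood test, 860 with an unadjusted p under 0.05). Interferon-response genes were called higher for 6 of 24 members in females, whose WT group contains WT replicate 8, and for 22 in males, and 0 of the 24 had an unadjusted p under 0.05 for the difference between sexes.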

How the data were processed

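RNA sequencing libraries were made from striatum and cortex, and only the 23 striatal libraries were used here. Per the labels' protocols, flash-frozen tissue gave total RNA (miRNeasy), of which an enriched subfraction was made into libraries by Illumina protocols. The authors deposited a table of estimated counts and a table of FPKM values for 43346 genes, and CASAVA 1.8.2 and the mm10 build are named in the submitters' processing notes. Not given in the sources used here were the aligner, quantifier and strand setting. The deposited estimated counts were rounded to whole numbers. Estimated counts can divide reads between similar genes.

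All 3 striatal groups were fitted together in edgeR 4.0.16 (R 4.3.3) with TMM scaling, its default filter on low counts and a term for sex, which left 19 residual degrees of freedom. p-values were adjusted by Benjamini-Hochberg over all genes tested, with a threshold of 0.05, and the procedure was tested on simulated data with 200 changed genes. Alternatives were DESeq2 1.42.0, limma 3.58.1 on log2 of FPKM plus 0.1 or 1, other filters and scalings, a term for the run tag L1 to L5 of the column names, the sexes apart, and each library left out. Single run tags held at most 3 libraries of a group, so the run tag was used as a term and not to split the libraries. Replicates are separate mice, and libraries within a group always differed beyond sampling noise (lowest chi-square per degree of freedom 7.72).

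Genes were named by rule: checks of genotype and target, the 10 largest changes in each direction among called genes whose groups did not overlap and whose higher group averaged at least 1 CPM, the 6 widest gaps in each direction, up to 4 called members of each list, and the 8 largest changes called in 1 R6/2 group alone. Some genes that the rule names are not reported here, though list counts include them. Others are said to be chosen after their values were seen or are described as members of their list. The comparison, the 30 lists and the rules were chosen with earlier results of these data known. The reference table of symbols covered 42462 genes. Positions were taken from GENCODE vM21 on mm10, and promoters came from RefSeq. Promoters of the lists were also searched for a sterol element, a D-box and a cyclic AMP element, whose counts are not reported here.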

Additional observations from a re-analysis of the deposited data

Results flagged for a closer look

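For genes given by library, the highest or lowest of the 8 values of a group was set against its nearest neighbour, and a gap above Dixon's 95% critical share of the group's range was noted. Among 230 such groups 62 passed. The critical share is set for 1 in 20 independent groups of normal values. These genes are not independent, and some were picked because treated replicate 5 was extreme. The count of 62 therefore cannot be read against that rate. Of these, 31 concerned treated replicate 5.

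In treated replicate 5 the lowest treated values were those of Scn4b (34.4 CPM), Rasgrp2 (37.0), Ppp1r1b (127), Foxp2 (43.9), Penk (142), Drd2 (19.7), Drd1 (34.6), Chrm4 (9.13), Tac1 (60.5), Eya1 (7.22), Ebf1 (9.99), Pde10a (148), Adcy5 (285) and Gabrd (10.9). The highest treated values in the same library were those of AW551984 (135 CPM), Rgs11 (16.9), Kcnip1 (40.8), Calb2 (96.4), Rtp4 (7.09), Msmo1 (50.5), Insig1 (49.4), Magel2 (51.8), Esr1 (11.4), Trh (13.1), Cbln1 (13.6), Wnt8b (0.418), Plcz1 (2.54), Grm2 (7.53), Cartpt (5.78), Ret (21.5) and Pomc (2.64).

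WT replicate 1 was the highest WT library for Abhd11os (19.8 CPM), Shank3 (495), Npas4 (47.4), Arc (146), Junb (53.2), Sst (150), Dbp (211) and Smim24 (1.23), and the lowest for Htt (137). Treated replicate 1 was the highest treated library for the activity-regulated genes Egr2 (1.57 CPM), Arc (67.2) and Junb (24.1).

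WT replicate 8 was the highest WT library for the interferon-related genes Irf7 (5.78 CPM), Ifit1 (8.89), Rtp4 (3.53), Ddx58 (10.3), Usp18 (4.91) and Nlrc5 (2.21). Treated replicate 4 was the highest treated library for Trib3 (1.25 CPM) and Dgat2l6 (0.526).

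WT replicate 7 was the lowest WT library for the myelin genes Mobp (1498 CPM) and Mal (392) and the highest for Cx3cr1 (85.9). The remaining values were Sec14l3 (0.882 CPM) and Ptprc (8.3), highest in treated replicate 8, Ahrr (0.913), highest in WT replicate 3, Plin4 (20.1) and Trh (8.92), highest in WT replicate 2, and, in WT replicate 5, Pdyn (86.9, lowest), Slco2a1 (4.69, highest) and Pomc (6.92, highest).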

How the results depend on the processing

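In treated R6/2 against WT, 37 alternatives were run. Library totals alone, leaving out both treated replicate 5 and WT replicate 1, and leaving out each of the 7 vehicle libraries were added after seeing the data. Of 145 named genes that were called, 40 lost the call in at least 1 alternative that tested them and 0 changed sign. The count of 9208 fell to 6104 in females alone (3139 higher, 3081 higher in males alone), where fewer libraries remain, and that of vehicle mice to 5495 in males alone. Scaling moved the split between higher and lower: 7541 and 2822 with library totals alone (72.8% higher), 7450 and 2785 with limma on FPKM plus 0.1 (72.8%), and 7407 and 2778 with limma on FPKM plus 1 (72.7%), against 52.5% higher as reported. Genes at least 2-fold higher numbered 140 with a minimum of 1 CPM in 8 libraries, 395 with library totals alone, 421 with no filter and 31 with limma on FPKM plus 1. Genes at least 2-fold lower numbered 428 and 203 with limma on FPKM plus 0.1 and plus 1. Between treated and vehicle mice DESeq2 called 1 gene and males alone gave 3.

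Leaving out 1 library at a time gave 8783 to 9355 called genes in treated mice, 8262 to 9210 in vehicle mice and 0 between them. The replicate numbers did not pair the mice (correlations of -0.163 to 0.0831 between same-numbered libraries), and a replicate block gave 8100 called genes, against 8621 in the same 16 libraries without it.

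All sign changes, given as log2 fold changes, were of genes not called in treated mice. With library totals alone and with limma on FPKM plus 0.1 and plus 1, in that order, Foxp2 was 0.05, 0.06 and 0.06, Gfap 0.04, 0.04 and 0.04, Mog 0.03, 0.03 and 0.03, and Mag 0.02, 0.04 and 0.04. In females alone Ebf1 was -0.03, Ptprc -0.13, Stat2 -0.06, Cbln1 0.19, Grm2 0.28 and Cartpt 0.08. In males alone Mog was 0.08 and Mag 0.12. Ptprc was -0.09 with the run tag as a term, and -0.10 to 0.07 with 1 library left out. The cause of these shifts was not tested.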

Other observations

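Myelin genes gave different counts in the sexes. In females 15 of 16 members were lower in treated R6/2 mice (median -0.70) and in males 7 of 16 (median -0.21). For the difference between sexes 11 of the 16 had an unadjusted p under 0.05, against 860 of all 17394 genes, and 0 passed after adjustment in edgeR's quasi-likelihood test. Single libraries lay at the ends of these ranges. Among treated libraries the summed level of the 16 genes was lowest in the female replicate 5, at 6683 CPM, and highest in the male replicate 6, at 12906 CPM. Among WT libraries it was lowest in the male replicate 7, at 10911 CPM, and the others lay between 12832 and 15281 CPM. With 4 mice of each sex in a group, what these libraries contribute to the counts was not tested.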
